A study of Mus musculus with 16 samples.

Results

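Imprinted genes are expressed mainly from the copy inherited from the mother or mainly from the copy inherited from the father. Members of this class that lie outside chromosome 7 were followed here, 10 of the 53379 genes in the count tables: Meg3, Rian and Igf2r, expressed from the maternal copy, Dlk1, Nnat, Peg10, Plagl1, Impact and Mest, expressed from the paternal copy, and Grb10, whose expressed copy differs between tissues. These parental classes are general ones that need not hold in every cell type. The 10 genes were chosen by name and not by their values. The parental mark at such loci is usually DNA methylation laid down in the germline at an imprinting control region. Polycomb repressive complex 2 (PRC2), of which Eed is a core subunit, trimethylates histone H3 at lysine 27 and is found on the silent copy of some imprinted genes. Many imprinted genes act in growth, in metabolism and in the developing brain.

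The libraries held RNA of cells sorted from mouse neocortex at postnatal day 4 (strain label CD1). Mosaic analysis with double markers (MADM) on chromosome 7 was driven by Emx1-cre, which is active in cortical progenitors, and left sparse green cells of known genotype. Green cells were Eed+/+ in control-MADM animals (MADM7-GT/TG with Emx1-cre and XGFAP-lacZ) and Eed-/- in Eed-MADM animals, where most surrounding cells were Eed+/-. GFP+/lacZ+ cells were taken as astrocytes, since XGFAP-lacZ places lacZ under the human GFAP promoter, and GFP+/lacZ- cells as neurons. The 4 groups were Eed+/+ astrocytes (n = 5), Eed-/- astrocytes (n = 5), Eed+/+ neurons (n = 2) and Eed-/- neurons (n = 3), each library from an individual animal. In both genotypes the green cells carried paternal chromosome 7 only, while the 10 genes here kept a copy from each parent. Read counts do not tell the parental copies apart, so every value below is the sum over both.

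Reads assigned to genes ranged from 211736 to 3178529 per labelled library. Of 15 libraries, 10 reached 1000000 uniquely aligned reads with at least 60% of reads uniquely aligned, called within the alignment limits below. The 5 others were Eed+/+ astrocyte replicate 3, Eed-/- astrocyte replicates 1, 3 and 4 and Eed+/+ neuron replicate 2, so the poorly aligned libraries were unevenly spread over the groups. Eed itself, counted over the whole gene including parts that recombination may leave, had 3.71, 28.4, 39.2, 46.1 and 76.2 CPM (counts per 1000000 gene reads, TMM-scaled) in Eed+/+ astrocytes and 0, 0, 0, 14.2 and 17.3 CPM in Eed-/- astrocytes. In neurons it had 64.9 and 81.2 CPM against 16.4, 33.4 and 38.0 CPM. Within the limits, 10 astrocyte markers summed to between 10700 and 22980 CPM in astrocytes and between 6313 and 8759 CPM in neurons, and 10 neuron markers to between 214.6 and 2900 CPM in astrocytes and between 1658 and 2796 CPM in neurons. The 10 oligodendrocyte lineage markers summed to between 2752 and 4336 CPM in the 4 neuron libraries within the limits, above the neuron marker sum in 3 of the 4. In the astrocyte libraries within the limits they summed to between 1502 and 6311 CPM. Markers of other cell types were thus present in both the GFP+/lacZ- and the GFP+/lacZ+ fraction. Microglia markers reached 15780 CPM in Eed-/- astrocyte replicate 1 and 2875 CPM in replicate 3, and erythroid markers 11930 CPM in replicate 4 and 8829 CPM in replicate 1. Marker sums are in CPM of plain gene reads, without TMM scaling. The part of these markers and of alignment in the results below was not tested. Tests used the labelled libraries, and the main values are also given without the 5 poorly aligned ones. In neurons, 1 Eed+/+ library was then left, so the SE and p of such a fit assume that it would vary like the Eed-/- neurons.

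RefSeq promoters (GRCm38.p6) were at hand for 8 of the 10 genes. The 250 bases before the start are shown for Meg3 and Rian, which were high and low in much the same libraries, for Nnat, the gene of highest level, and for Mest, the gene with the largest difference between the neuron groups. All 4 lie on the plus strand, and capitals mark CpG dinucleotides, where DNA methylation sits.
Meg3, chr12:109540746-109540995: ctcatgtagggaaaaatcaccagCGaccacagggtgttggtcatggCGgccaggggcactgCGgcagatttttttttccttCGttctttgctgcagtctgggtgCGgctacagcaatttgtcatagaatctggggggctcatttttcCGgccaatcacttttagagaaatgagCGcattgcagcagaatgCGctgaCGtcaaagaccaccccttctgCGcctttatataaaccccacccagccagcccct
Rian, chr12:109603695-109603944: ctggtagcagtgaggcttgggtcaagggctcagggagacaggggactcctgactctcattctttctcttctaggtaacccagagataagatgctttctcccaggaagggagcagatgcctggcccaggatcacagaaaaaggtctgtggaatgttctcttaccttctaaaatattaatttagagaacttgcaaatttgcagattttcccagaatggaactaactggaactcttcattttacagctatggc
Nnat, chr2:157559828-157560077: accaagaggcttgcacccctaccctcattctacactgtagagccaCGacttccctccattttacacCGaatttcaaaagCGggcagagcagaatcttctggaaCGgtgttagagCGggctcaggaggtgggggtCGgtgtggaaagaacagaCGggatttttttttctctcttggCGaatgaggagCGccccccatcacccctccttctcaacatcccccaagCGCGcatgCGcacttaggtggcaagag
Mest, chr6:30737800-30738049: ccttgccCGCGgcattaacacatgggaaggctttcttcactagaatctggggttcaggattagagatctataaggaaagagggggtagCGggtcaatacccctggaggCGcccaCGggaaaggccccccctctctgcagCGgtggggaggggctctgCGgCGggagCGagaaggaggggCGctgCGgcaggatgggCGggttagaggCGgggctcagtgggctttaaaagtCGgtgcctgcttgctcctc
The table held 2 windows for Meg3 and 3 for Mest. The first Meg3 window is shown since it lies at the annotated gene start, and for Mest the second, which nearly coincides with the third. The 250 bases shown held 10 CpG at Meg3, 12 at Nnat and 14 at Mest, against a median of 6 over 32851 promoters of the same length, and 0 at Rian. The other Meg3 window, inside the gene, had 0 and the first Mest window 7. The first Grb10 promoter had 40 and Igf2r had 27. The letters TGCCGC on either strand, the core that ZFP57 binds when methylated, occurred once or more in 8.7% of all these windows. They were found in the windows shown for Meg3 (1 match) and Mest (2 matches), but not in the second Meg3 or the first Mest window. Plagl1 had 1 match, and none was found for Rian, Dlk1, Nnat, Grb10 and Igf2r.

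Nnat stood far above the other genes. Per length (reads per kilobase of merged exons per 1000000 gene reads, RPKM), its median over the 10 libraries within the limits was 664, with a lowest library of 335 and a highest of 1278. Mest followed with a median of 24.5 RPKM (9.79 to 56.5) and Impact with 14.8 RPKM (8.46 to 24.3). The ranges of Mest and Impact overlapped, so their order did not hold beyond the spread between libraries, while the lowest Nnat library lay above the highest Mest library. Grb10 (median 4.54 RPKM), Meg3 (4.17 RPKM), Igf2r (2.61 RPKM) and Plagl1 (2.41 RPKM) formed an overlapping middle, and Peg10 (1.16 RPKM), Dlk1 (0.759 RPKM) and Rian (0.436 RPKM) were lowest. Below Nnat the order differed between groups. In the Eed+/+ neuron library within the limits, Mest (9.79 RPKM) lay below Impact (18.66 RPKM), Grb10 (12.25 RPKM) and Meg3 (10.92 RPKM). Nnat supplied between 56.0% and 85.0% of the reads of the 10 genes in each library within the limits, with a median of 74.1%. In the 5 poorly aligned libraries its share ran from 9.52% to 99.2%.

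**Figure D1:**
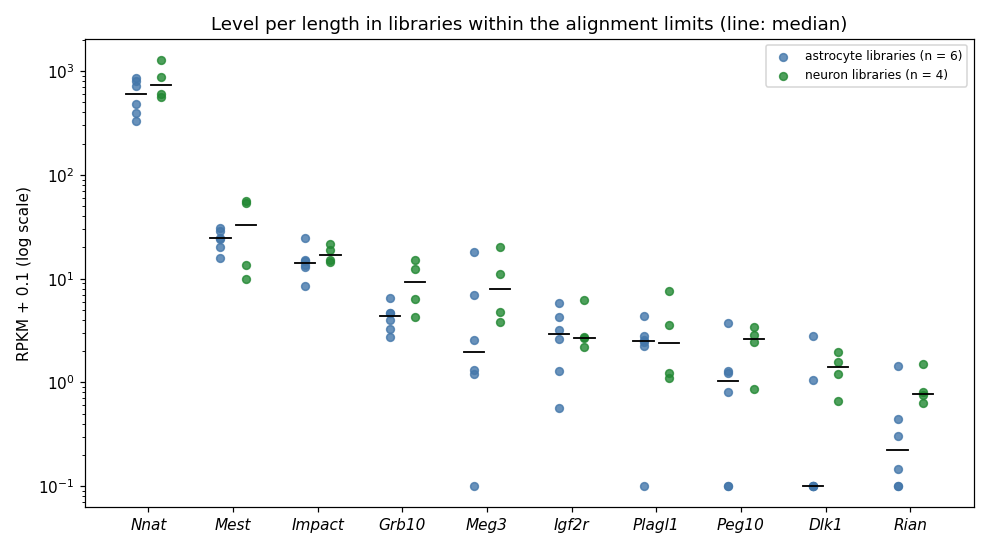
RPKM of each gene in the 6 astrocyte and 4 neuron libraries within the alignment limits, plotted as RPKM + 0.1 on a log axis so that libraries at 0 stay visible, with lines at the medians. Nnat lies between 335 and 1278 RPKM in every library, above all other genes.

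Detection tended to be lower in the poorly aligned libraries, though the ranges overlapped. These libraries also had the fewest gene reads, so alignment and depth were not separated. Between 7 and 10 of the 10 genes had a read in each library within the limits, and between 2 and 8 in the poorly aligned libraries. All 10 genes had a read in Eed+/+ astrocyte replicate 4, in Eed+/+ neuron replicate 1 and in the 3 Eed-/- neuron libraries. Peg10 had no read in any of the 5 poorly aligned libraries. A library with 211736 gene reads, the smallest, allows a level of up to 14.2 CPM where no read was seen (3 counts), against 0.944 CPM in the largest, and these limits cover counting error only.

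**Figure D2:**
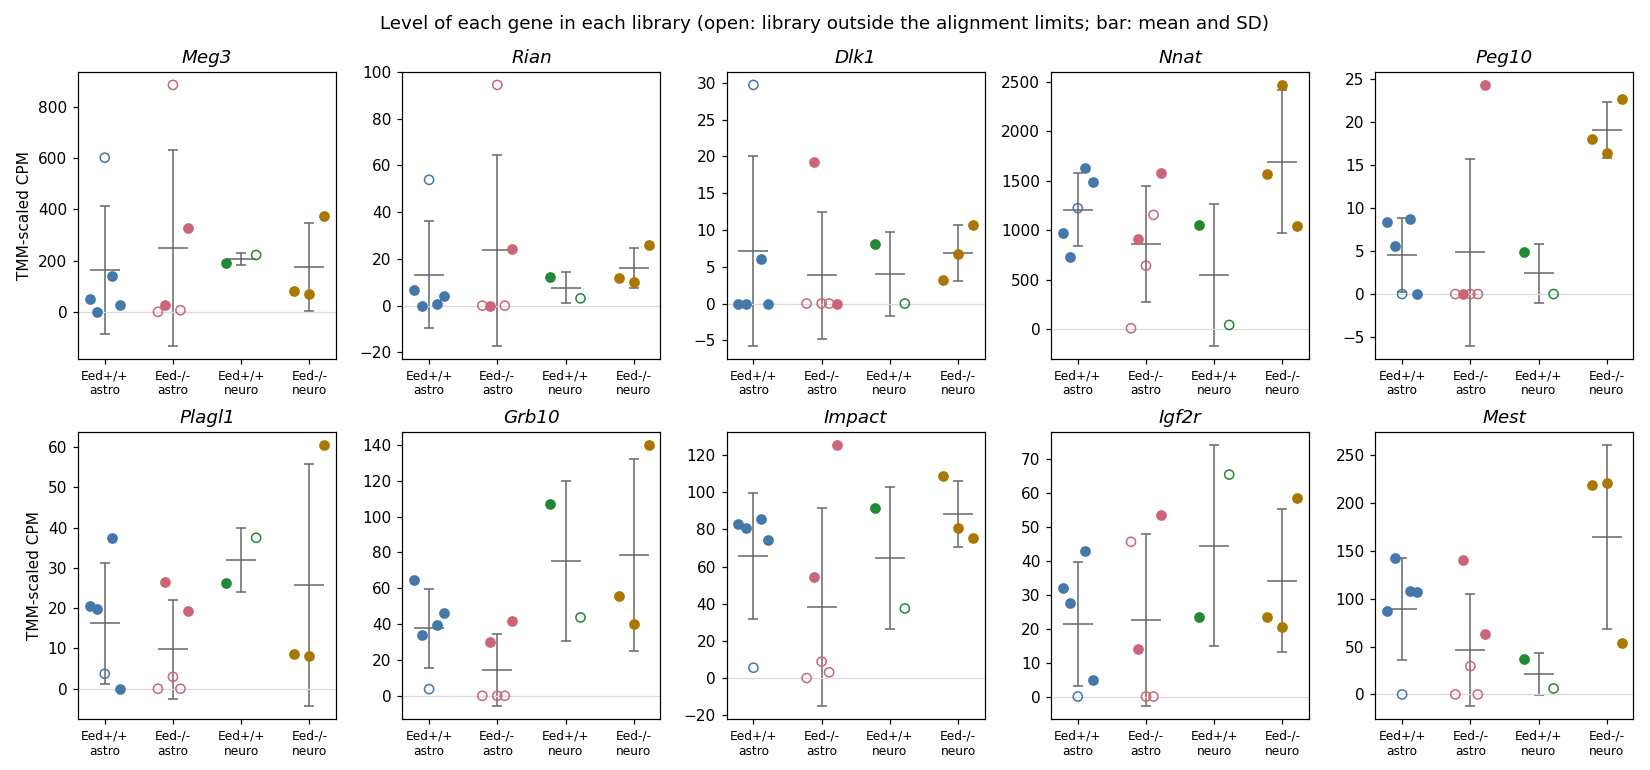
TMM-scaled CPM of each gene by group, 1 point per library (n = 5, 5, 2 and 3), open where the library lay outside the alignment limits, with bars for the mean and SD. Mest and Peg10 in Eed-/- neurons lie above both Eed+/+ neuron libraries, and the open points hold most of the values at 0.

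The genes of the Dlk1-Dio3 domain on chromosome 12 varied widely between libraries. Meg3 (ENSMUSG00000021268.17, chr12:109541001-109571726, plus strand), a long noncoding RNA known in neurons, had 49.2, 0, 602, 138 and 24.9 CPM in replicates 1 to 5 of the Eed+/+ astrocytes. The Eed-/- astrocyte libraries had 0, 25.3, 886, 6.18 and 329 CPM. In Eed+/+ neurons it had 189 and 222 CPM, and in Eed-/- neurons 82.9, 70.3 and 374 CPM. The astrocyte groups overlapped and each held libraries at or near 0 and libraries of 329 CPM or more, while every neuron library was above 70 CPM. Eed+/+ astrocyte replicate 2, with 3178529 gene reads the deepest library, had 0 Meg3 reads. Other genes, mostly an antisense RNA, cover 8.29% of the Meg3 exon length, and counting without strand cannot separate them.

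Rian (ENSMUSG00000097451.10, chr12:109603940-109661716, plus strand), a noncoding RNA that hosts small nucleolar RNAs downstream of Meg3, had 206 reads in all against 2679 for Meg3. It had 6.81, 0, 53.8, 0.923 and 4.16 CPM in Eed+/+ astrocytes and 0, 0, 94.5, 0 and 24.3 CPM in Eed-/- astrocytes. Neuron libraries had 12.3 and 3.12 CPM (Eed+/+) and 11.7, 10.3 and 25.8 CPM (Eed-/-). All 11 libraries with a Rian read also had a Meg3 read, of 13 with a Meg3 read. Meg3 reads per Rian read had a median of 11.2 and ran from 6 to 150, highest in Eed+/+ astrocyte replicate 4, where Rian had 2 reads. Over the 10 libraries within the limits the levels of Meg3 and Rian had a Spearman rho of 0.85, given as a description since the libraries differ in depth and in cell type. Mirg, the next noncoding RNA of the domain, had reads in 7 libraries, and all 7 had Rian reads.

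Meg3 also moved with the neuron markers. Over the same 10 libraries, the rho of Meg3 with the summed level of the 10 neuron markers was 0.89, that of Peg10 0.82 and that of Rian 0.79. Most of the other genes were also above 0. Nnat had 0.67, Impact and Igf2r 0.62 each, Grb10 0.38, Plagl1 0.32, Dlk1 0.18 and Mest -0.37. The astrocyte library with no Meg3 read, Eed+/+ replicate 2, had the lowest neuron marker sum within the limits (214.6 CPM, 6 of 10 markers with a read). Eed-/- astrocyte replicate 5, with 329 CPM of Meg3, had the highest (2900 CPM, 10 of 10 markers). Among poorly aligned libraries, Eed+/+ astrocyte replicate 3 had 4437 CPM of neuron markers with its 602 CPM of Meg3, but Eed-/- astrocyte replicate 3 had 817.9 CPM with 886 CPM of Meg3. The latter library also had 1710 CPM of mural and meningeal markers, the highest sum of any labelled library. The part of neuron RNA, or of mural and meningeal RNA, in the Meg3 level of astrocyte libraries was not tested. In sorted bulk samples fewer cells of a type and less RNA per cell cannot be told apart.

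**Figure D3:**
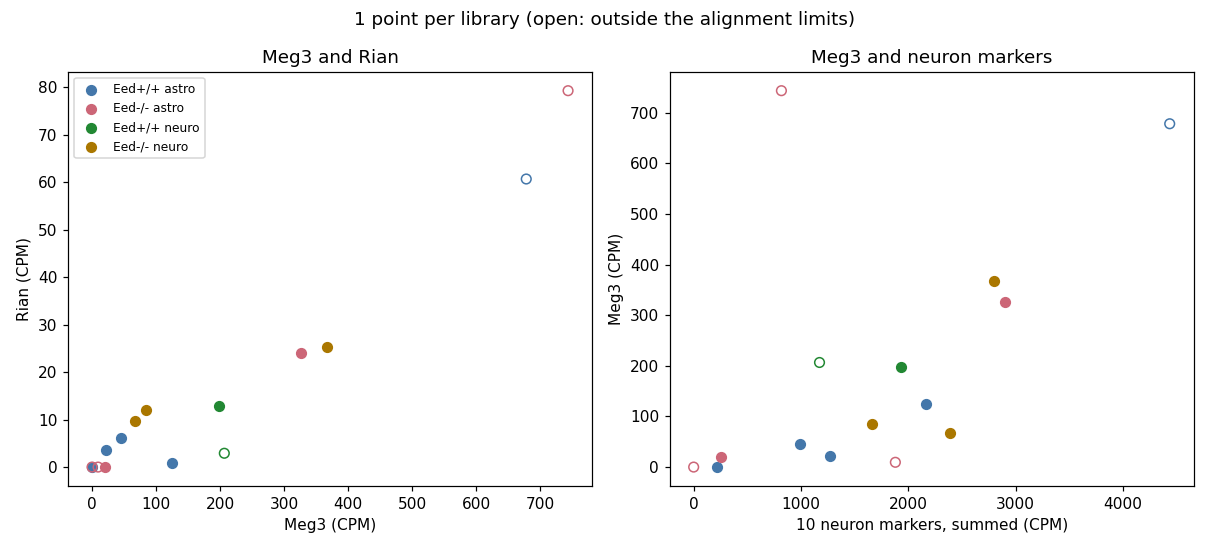
Left, Rian against Meg3, and right, Meg3 against the summed level of 10 neuron markers, in CPM of gene reads, 1 point per library, open where outside the alignment limits. Libraries with no Meg3 read lie at the origin of the left panel, and the 2 libraries within the limits with most Meg3 have neuron marker sums of 2796 and 2900 CPM.

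Dlk1 (ENSMUSG00000040856.17, chr12:109452823-109463336, plus strand), a membrane protein related to Notch ligands and expressed from the paternal copy of the same domain, did not follow Meg3. It had 107 reads in all, in 7 libraries. In Eed+/+ astrocytes the values were 0, 0, 29.7, 6.0 and 0 CPM, and in Eed-/- astrocytes 0, 19.3, 0, 0 and 0 CPM. In neurons they were 8.05 and 0 CPM (Eed+/+) and 3.13, 6.67 and 10.7 CPM (Eed-/-). Its rho with Meg3 over the libraries within the limits was 0.36.

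The first question was whether loss of Eed changed these genes in astrocytes. No gene of the 10 was called. Of them 7 passed the filter on low counts (Rian, Dlk1 and Peg10 did not), and edgeR's quasi-likelihood test called 0 of the 7 with Benjamini-Hochberg adjustment over 8956 genes, against 0% of all genes tested. None of the 7 separated the genotypes, where 1.64% of all genes did. None of the 7 had an unadjusted p under 0.05, against 108 of all genes, and DESeq2, which called 12 genes in all, called none of the 10. The median log2 fold change of the 7 was -0.64, beside -0.54 over all genes tested. Within the limits all 10 passed the filter, their median was 0.29 beside -0.02 over all genes, and none separated the genotypes, where 14.6% of all genes did. With RLE size factors in place of TMM the median over all genes was -0.37. Relative to the TMM median, Meg3 lay at 1.18 and Grb10 at -0.79.

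Nnat (ENSMUSG00000067786.16, chr2:157560078-157562522, plus strand), which encodes neuronatin, a small membrane protein of the endoplasmic reticulum, had 977, 727, 1224, 1627 and 1488 CPM in Eed+/+ astrocytes. In Eed-/- astrocytes it had 10.2, 914, 644, 1156 and 1584 CPM. Apart from Eed-/- replicate 1 the groups covered nearly the same range. The means were 1208 ± 367 CPM (SD, n = 5) and 861 ± 588 CPM (SD, n = 5), a log2 fold change of -0.38 with a standard error (SE) of 0.96. Without the poorly aligned libraries the value was 0.06 with an SE of 0.42.

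Mest (ENSMUSG00000051855.15, chr6:30723547-30748465, plus strand) encodes an enzyme-like protein of the endoplasmic reticulum. It had 87.4, 142, 0, 108 and 107 CPM in Eed+/+ astrocytes and 0, 141, 29.5, 0 and 62.7 CPM in Eed-/- astrocytes. All values under 30 CPM came from poorly aligned libraries, and the log2 fold change of -0.88 (SE 1.45) became -0.12 (SE 0.44) without them. Grb10 (ENSMUSG00000020176.17, chr11:11930508-12038683, minus strand), an adaptor that restrains insulin and IGF receptor signalling, had 64.4, 34.0, 3.71, 39.7 and 46.4 CPM in Eed+/+ and 0, 29.9, 0, 0 and 41.5 CPM in Eed-/- astrocytes. Its log2 fold change was -1.32 (SE 1.61) and -0.36 (SE 0.61) without the poorly aligned libraries. Impact, on chromosome 18, which restrains the stress kinase GCN2, had between 74.1 and 85.8 CPM in the 4 Eed+/+ astrocyte libraries within the limits, and 54.5 and 125 CPM in the 2 Eed-/- libraries. Its log2 fold change was -0.72 (SE 1.49) over all 10 libraries and 0.16 (SE 0.45) within the limits.

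Igf2r (ENSMUSG00000023830.13, chr17:12682406-12769664, minus strand), the receptor that clears IGF2, and Plagl1 (ENSMUSG00000019817.18, chr10:13060504-13131694, plus strand), a zinc finger transcription factor, differed by 0.17 (SE 1.59) and by -0.64 (SE 1.52) on the log2 scale, and within the limits by 0.33 (SE 0.99) and by 0.24 (SE 1.44). Igf2r ran from 0 to 42.9 CPM in Eed+/+ and from 0 to 53.6 CPM in Eed-/- astrocytes, and Plagl1 from 0 to 37.4 CPM and from 0 to 26.6 CPM. Igf2r was one of only 2 genes of the 10 with a read in Eed-/- astrocyte replicate 1 (45.7 CPM, 27 reads), the library rich in microglia markers. Meg3 had a log2 fold change of 0.65 (SE 1.23), which was 1.74 (SE 1.44) within the limits. It ran from -0.87 without Eed-/- replicate 3 to 2.31 without Eed+/+ replicate 3. In the first range of consecutive library numbers alone it was 3.66 (SE 2.19), and in the second -0.65 (SE 2.33). Peg10 (ENSMUSG00000092035.8, chr6:4747306-4760517, plus strand), derived from a retrotransposon and known from the placenta, was seen in 3 Eed+/+ astrocyte libraries (8.38, 5.60 and 8.76 CPM) and 1 Eed-/- library (24.3 CPM). Within the limits, where all 10 genes passed the filter, Rian differed by 2.03 (SE 2.14), Dlk1 by 2.63 (SE 2.44) and Peg10 by 1.08 (SE 2.03). Every one of these differences was smaller than 2 SE.

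The same comparison in neurons gave the widest separations, in Mest and Peg10. Mest had 37.0 and 6.24 CPM in Eed+/+ neurons and 219, 221 and 53.5 CPM in Eed-/- neurons, so that the groups did not overlap. The means were 21.6 ± 21.8 CPM (SD, n = 2) and 164 ± 96.0 CPM (SD, n = 3). Its log2 fold change of 2.72 (SE 0.88) had an unadjusted p of 0.0085 and an adjusted p of 0.644 in edgeR over 11862 genes, and 98.2% of the genes tested had a lower fold change. Part of the Mest exons, 912 bases or 23.1% of their length, lies under the antisense gene Copg2, and counting without strand cannot separate reads there. The 10 microglia markers summed to 36.9 and 0 CPM in the Eed+/+ libraries and to 164, 97.2 and 17.9 CPM in the Eed-/- libraries, in the same order. Over the 10 libraries within the limits the rho of Mest with that sum was 0.67. The 2 libraries richest in these markers were poorly aligned Eed-/- astrocyte libraries with little or no Mest. Replicate 1 had 15780 CPM of the markers and 0 CPM of Mest, and replicate 3 had 2875 CPM and 29.5 CPM. The part of microglia RNA in the Mest difference was not tested. Peg10 had 4.83 and 0 CPM in Eed+/+ neurons and 18.0, 16.4 and 22.7 CPM in Eed-/- neurons. Its groups did not overlap either, with a log2 fold change of 2.40 (SE 1.08), an unadjusted p of 0.044 and an adjusted p of 0.680 by edgeR. Peg10 had 9 and 0 reads in Eed+/+ and 23, 32 and 36 in Eed-/- neurons, and passed the filter on low counts only through the latter. Its separation and p are not free of that selection.

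Separation of this kind was common. With 2 libraries against 3, 13.8% of all genes tested were higher in every Eed-/- neuron library than in both Eed+/+ libraries, and 23.1% did not overlap in either direction. Of the 10 genes 2 were separated, both upward. Against Eed+/+ replicate 1 alone the same 2 genes were separated upward, beside 20.7% of all genes. None of the 10 was called by edgeR, against 0% of 11862 genes. At an unadjusted p under 0.05 there were 862 genes, with Mest and Peg10 among them, and DESeq2 called 56 genes, none of the 10. The median log2 fold change of the 10 genes was 0.34, beside 0.15 over all genes tested, with 6 above 0 and 4 below. Within the limits it was 0.13, beside 0.07 over all genes, with 5 above 0 and 5 below.

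These values moved when Eed+/+ neuron replicate 2, with 31.0% of its reads uniquely aligned, was left out. The part of alignment in this was not tested. Without that library a single Eed+/+ library was left, so the 3 Eed-/- libraries alone set the spread. Mest then had a log2 fold change of 2.12 (SE 0.82, edgeR adjusted p = 1.00) and Peg10 of 1.93 (SE 1.01). Without Eed+/+ replicate 1, leaving the poorly aligned library as the only control, Mest reached 4.56 (edgeR adjusted p = 0.018) and Nnat 5.14 (edgeR adjusted p = 0.0024), in a fit that called 2601 genes in all. Here too only the Eed-/- group gave a spread, and the difference set 1 poorly aligned library against 3 others. Nnat itself had 1058 and 43.7 CPM in Eed+/+ neurons and 1574, 2470 and 1043 CPM in Eed-/- neurons. The low value was that of replicate 2, and the log2 fold change of 1.58 (SE 1.03) became 0.66 (SE 0.67) without it.

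The other neuron values were smaller, and 3 of them changed direction without Eed+/+ replicate 2. Dlk1 went from 0.34 (SE 1.17) to -0.25 (SE 1.21), Impact from 0.33 (SE 0.65) to -0.09 (SE 0.62) and Igf2r from -0.48 (SE 0.82) to 0.50 (SE 0.82). Rian went from 0.78 (SE 0.96) to 0.33 (SE 0.93), Meg3 from -0.35 (SE 0.77) to -0.15 (SE 0.75), Plagl1 from -0.41 (SE 0.97) to -0.07 (SE 0.96) and Grb10 from -0.06 (SE 0.72) to -0.48 (SE 0.68). In Meg3, Plagl1, Grb10 and Igf2r, Eed-/- replicate 3 had the highest value of its group, at 374, 60.4, 140 and 58.5 CPM, and in Mest and Nnat it had the lowest.

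**Figure D4:**
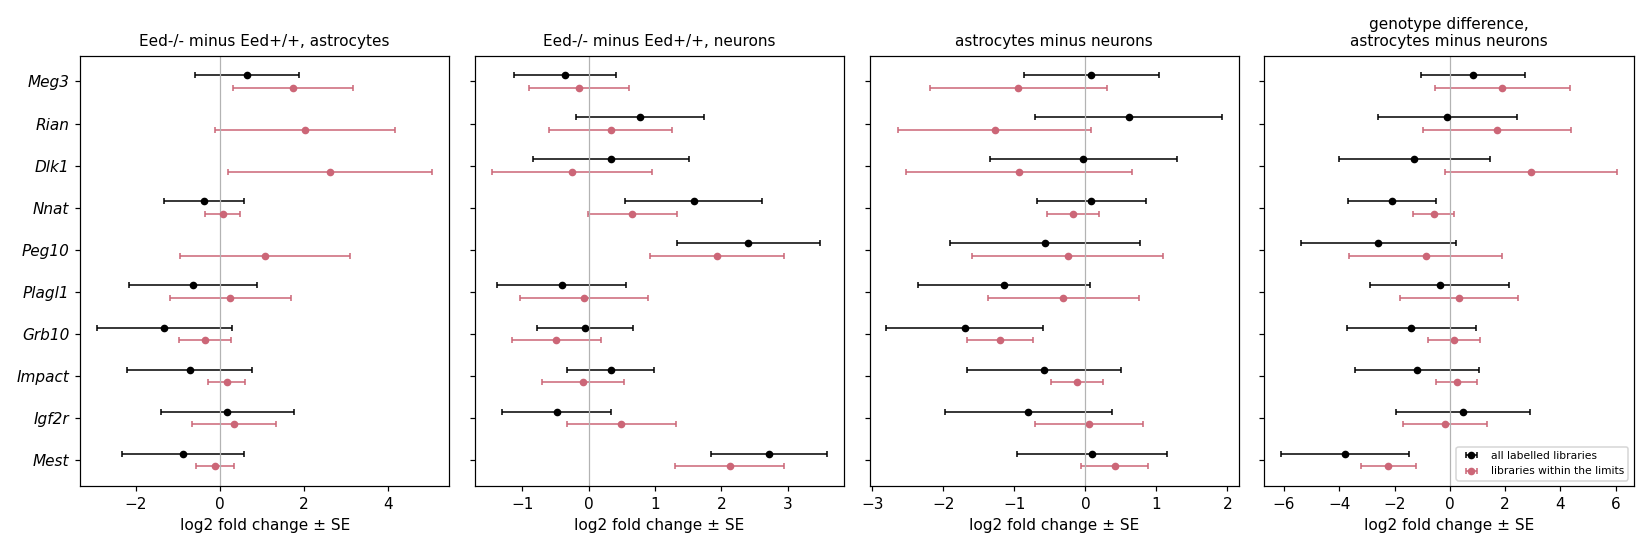
Log2 fold change with SE of each gene in the 4 comparisons, over all labelled libraries (black) and over those within the alignment limits (red). No value passed an adjusted p of 0.05 in either set, and Rian, Dlk1 and Peg10 have no black point in astrocytes because they did not pass the filter.

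Astrocytes and neurons were next compared over both genotypes, in a fit over all 15 libraries. None of the 10 genes was called, against 0.015% of 13367 genes (2 genes, both lower in astrocytes). The call count at an unadjusted p under 0.05 was 736 over all genes and 0 over the 10, and DESeq2 called 5 genes, none of the 10. The median of the 10 was -0.30, beside -0.34 over all genes tested, and within the limits -0.28 beside -0.16. None of the 10 separated the cell types, against 0.471% of all genes, and none did within the limits, against 3.48%. Meg3 and Rian turned from 0.08 (SE 0.95) and 0.61 (SE 1.31) to -0.95 (SE 1.25) and -1.28 (SE 1.36) within the limits. Over all 15 libraries Grb10 had the largest difference of the 10, -1.70 (SE 1.10, edgeR adjusted p = 1.00), while within the limits that of Rian was larger. Grb10 had between 29.9 and 64.4 CPM in the 6 astrocyte libraries within the limits and 107, 55.5, 40.0 and 140 CPM in the 4 neuron libraries, so the ranges overlapped. The log2 difference was then -1.20 (SE 0.46), with an unadjusted p of 0.020 and an edgeR adjusted p of 0.559. Impact was nearly level between the cell types within the limits, at 83.9 ± 23.2 CPM (SD, n = 6) and 89.2 ± 14.7 CPM (SD, n = 4), a log2 difference of -0.12 (SE 0.37). Nnat differed by -0.17 (SE 0.37) in the same libraries. Over all 15 libraries the log2 difference was -0.58 (SE 1.08) for Impact and 0.08 (SE 0.77) for Nnat.

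Whether the genotype difference itself differed between the cell types was tested as an interaction. None of the 10 genes was called, against 0.0524% of 13367 genes (7 genes), and all 10 had an edgeR adjusted p of 1.00. At an unadjusted p under 0.05 there were 483 genes and 0 of the 10, and DESeq2 called 3 genes, none of the 10. The median of the 10 was -1.24, beside -0.79 over all genes tested, and within the limits 0.20 beside -0.19. With RLE size factors the median over all genes moved to -0.31. Over all 15 libraries, though not within the limits, Mest had the largest value of the 10, -3.79 (SE 2.31), or -3.00 relative to the median of all genes. Within the limits it was -2.23 (SE 0.99, unadjusted p = 0.041, edgeR adjusted p = 1.00), a value that rests on the 37.0 CPM of the 1 Eed+/+ neuron library left.

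Each gene was also set beside all others that passed the filter of the 15 libraries, by the Spearman rho of log2 CPM over the 10 libraries within the limits. Meg3 was most like Hook1 (rho 0.997) and Dnajc6 (0.98), Rian like Pak3 and Sorbs2 (0.96 each), and Dlk1 like Bean1 (0.99) and Tusc1 (0.96). Nnat was most like Nsg1 (0.98) and Atp5a1 (0.95), Mest like Slc25a5 (0.94) and Sec11a (0.93), and Peg10 like Zfp536 (0.96) and Mfng (0.95). Grb10 was most like Rbm12b1 (0.99) and Unc13a (0.96), Impact like Mrm3 (0.98) and Rilpl1 (0.95), Igf2r like Mroh2a (0.96) and Gm43359 (0.95), and Plagl1 like Elk4 and Aida (0.93 each). Between 72 and 502 of 13366 genes had a rho of at least 0.8 with a given gene, most for Meg3, so these neighbours were the top of long lists. No gene of the 10 was among the 2 most like another.

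A list of other imprinted genes outside chromosome 7 gave the same count of calls. Of 33 in the tables, 12 were tested in astrocytes, 18 in neurons and 23 in each fit over 15 libraries, and edgeR called 0 in each. Their median log2 fold changes were -0.46 in astrocytes (3 above 0 and 9 below), 0.13 in neurons (9 above and 9 below), -0.93 between the cell types and -0.20 in the interaction.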

How the data were processed

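RNA-seq was measured in 16 libraries of sorted cells. The authors prepared Smart-Seq v2 libraries, sequenced them on an Illumina HiSeq, aligned reads with STAR to GRCm38 (mm10) and deposited raw read counts per gene, neither normalized nor pooled. No annotation release was found in the methods or labels read. Each of the deposited count files opened with 4 lines of totals that name no gene, which stayed out of library sizes. The unstranded count column was used (between 46.7% and 52.7% of stranded reads of the labelled libraries were on the first strand), so overlapping and antisense genes cannot be separated, and between 0.934% and 5.66% of uniquely aligned reads were set aside as ambiguous. Reads outside genes made up between 8.55% and 71.6%. Symbols, coordinates and exon lengths came from GENCODE mouse release 21 (53274 of 53379 identifiers matched).

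The labels of 1 library named both cell types, and it entered no comparison. Genes were tested with edgeR 4.0.16 (R 4.3.3, TMM, filterByExpr, quasi-likelihood test, robust, two-sided, adjusted over all genes tested, threshold 0.05), within astrocytes, within neurons and over 15 libraries. SE came from the F statistic. Fits were tested on simulated data. DESeq2 1.42.0, limma 3.58.1 voom with quality weights, RLE size factors, no filter, libraries within the alignment limits (taken from the study's exclusion grounds for embryonic libraries), the 2 ranges of consecutive library numbers (which no source calls a batch), a replicate block, a threshold of 0.2 and leaving out each library were alternatives. Counts of separated genes and medians within the alignment limits were added after the data were seen. The study set aside libraries not named in the sources used here, so all 15 were kept. Cell type markers were 10 astrocyte, 10 neuron, 10 oligodendrocyte lineage, 10 microglia, 8 endothelial, 9 mural and meningeal and 5 erythroid genes. Endothelial markers summed to at most 54.4 CPM and mural and meningeal markers to at most 1710 CPM in labelled libraries.

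Named genes were the 10 members, Eed, other listed imprinted genes past the threshold (0) and the 2 genes most like each member. The members were given by name, while the lists of other imprinted genes and of markers were chosen with earlier results of these data known.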

Additional observations from a re-analysis of the deposited data

Results flagged for a closer look

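In groups of 5 libraries, a gap between the highest or lowest library and the next, over 0.71 of the group's range, marked 7 values among the 20 combinations of gene and astrocyte group examined. Chance marks about 1 in 20 groups of independent, normally distributed values, a rate that does not carry over here, since 4 of the 7 came from 1 library and 2 were a single library with reads against 4 at 0. In Eed+/+ astrocytes, replicate 3 stood high in Meg3 (602 CPM, next 138 CPM), Rian (53.8 CPM, next 6.81 CPM) and Dlk1 (29.7 CPM, next 6.0 CPM) and low in Impact (5.57 CPM, next 74.1 CPM). This is a poorly aligned library with 477760 gene reads. In Eed-/- astrocytes, Rian was high in the poorly aligned replicate 3 (94.5 CPM, next 24.3 CPM), Dlk1 was seen in replicate 2 alone (19.3 CPM) and Peg10 in replicate 5 alone (24.3 CPM).

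The library whose labels named both cell types, with 221456 gene reads and 17.8% of reads uniquely aligned, was in no comparison. Impact had 93 reads there, 419.9 CPM, above the highest Eed+/+ library of either cell type (95.7 CPM). Of the other members Nnat had 2 reads and Meg3 1 read, and the remaining 7 had none, where up to 13.5 CPM is allowed by counting.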

How the results depend on the processing

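Counts of genes called over the whole table moved with the test. In astrocytes (0 as reported) DESeq2 called 12, no filter 5, a fit over all 15 libraries 46 and the first range of library numbers alone 4, and leaving out a library gave 0 to 1. In neurons (0 as reported) DESeq2 called 56, no filter 127, libraries within the limits 1 and the fit over 15 libraries 3, and leaving out a library gave 0 to 2601, the highest without Eed+/+ replicate 1 and 15 without Eed-/- replicate 1. Between the cell types (2 as reported) a threshold of 0.2 gave 6, DESeq2 5, and voom, no filter, libraries within the limits, the library number range as covariate and the replicate block 0 each, and leaving out a library gave 0 to 5, the highest without Eed-/- astrocyte replicate 5. In the interaction (7 as reported) a threshold of 0.2 gave 13, RLE size factors 21, DESeq2 3, no filter 2, voom 0, libraries within the limits 0 and the replicate block 2, and leaving out a library gave 1 (without Eed-/- astrocyte replicate 4) to 12 (without Eed-/- astrocyte replicate 5). The causes were not tested.

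Of 699 alternative log2 fold changes of the members, 606 kept their direction and their side of the threshold, 91 changed direction and 2 passed the threshold (Mest and Nnat in neurons without Eed+/+ replicate 1, against 1 poorly aligned library). Of 37 member results 12 never changed direction. The group means in plain CPM differed from those in TMM-scaled CPM by less than the SD in all 40 cases. Rian, Dlk1 and Peg10 gave no value in astrocytes as reported.

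Values of changed direction follow, as log2 fold changes. Within the limits, in astrocytes, Nnat had 0.064, Plagl1 0.24 and Impact 0.16, and in neurons Dlk1 had -0.25, Impact -0.090 and Igf2r 0.50. Between the cell types Meg3 had -0.95, Rian -1.28, Nnat -0.17 and Igf2r 0.052, and in the interaction Rian had 1.70, Dlk1 2.93, Plagl1 0.34, Grb10 0.14, Impact 0.25 and Igf2r -0.17. With voom, Igf2r had -0.59 in astrocytes and Dlk1 -0.33 in neurons. Between the cell types voom gave -1.71 for Meg3, -1.92 for Rian and -0.20 for Mest, and in the interaction 1.35 for Rian, 1.32 for Dlk1, 0.41 for Plagl1 and -0.80 for Igf2r. DESeq2 gave 0.11 for Dlk1 between the cell types and 0.054 for Plagl1 in the interaction, and RLE size factors gave 0.089 for Dlk1 between the cell types and 0.045 for Rian and 0.059 for Plagl1 in the interaction. In the fit over 15 libraries Grb10 in neurons had 0.050. The first range of library numbers alone gave -0.38 for Igf2r, and the second -0.65 for Meg3 and 0.26 for Impact, in astrocytes. With the range as covariate Meg3 had -0.61 and Nnat -0.56 between the cell types, and Rian 0.29 in the interaction.

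Astrocyte and neuron libraries of the same genotype and replicate number could share an animal, and their correlations of deviations ran from -0.05 to 0.13. Libraries of the same cell type and number but other genotype could not, and theirs ran from -0.26 to 0.17. Most pairs of the first kind held a poorly aligned library, so these values do not decide whether animals were shared. The labels do not say that a number marks a shared animal, and the libraries were not treated as paired. With the replicate block Igf2r had -0.24 in astrocytes, Meg3 -3.60, Rian -2.52 and Nnat -0.30 between the cell types, and Dlk1 3.28 and Igf2r -0.79 in the interaction. It changed no call of a member.

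Leaving out a library gave these ranges where a direction changed. In astrocytes Meg3 ran from -0.87 to 2.31 and Igf2r from -0.28 to 0.69. In neurons Meg3 ran from -1.49 to 0.016, Dlk1 from -0.25 to 6.15, Plagl1 from -1.96 to 0.0027, Grb10 from -0.75 to 0.69, Impact from -0.090 to 1.09 and Igf2r from -1.09 to 0.50. Between the cell types Meg3 ran from -0.73 to 0.68, Rian from -0.44 to 1.27, Dlk1 from -2.75 to 2.71, Nnat from -0.40 to 1.91, Peg10 from -3.47 to 1.85 and Mest from -0.38 to 1.01. In the interaction Meg3 ran from -0.61 to 2.47, Rian from -1.98 to 2.00, Dlk1 from -6.83 to 0.84, Plagl1 from -1.18 to 1.24 and Igf2r from -0.45 to 1.12. Some values that kept their direction moved widely too. Peg10 ran from 1.93 to 7.60 in neurons and from -8.37 to -1.83 in the interaction. In astrocytes Mest ran from -1.83 to -0.57, Grb10 from -2.21 to -1.01 and Impact from -1.91 to -0.41.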

Other observations

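Among the other imprinted genes, Asb4 was picked out after its values were seen. It had 0 reads in all 10 astrocyte libraries and 14, 0, 20, 18 and 31 reads in the neuron libraries (Eed+/+ replicates 1 and 2, then Eed-/- replicates 1 to 3). Pooled over libraries, neurons had 11.8 CPM, at least 53.5-fold higher than the level that 3 counts over all astrocyte libraries would give (0.220 CPM). The edgeR adjusted p between the cell types was 0.115, so it was not called. Dio3 had 26 reads in 2 of 10 astrocyte libraries, 22 of them in the poorly aligned Eed+/+ replicate 3, and 0 reads in neurons.

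In the library whose labels named both cell types, Klf14 had 157 reads (709 CPM, against at most 3.34 CPM in labelled libraries), H13 had 349 reads (1576 CPM against at most 291 CPM) and Pon2 had 177 reads (799 CPM against at most 667 CPM). Its 10 astrocyte markers summed to 23690 CPM and its 10 neuron markers to 9.03 CPM.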
